A study of Homo sapiens with 18 samples.

Results

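Cells carrying the SRF-ICA1L fusion were compared with cells carrying the SRF-PDGFRB fusion, over all genes counted. The comparison is between 6 of the 18 RNA libraries of the study, 3 labelled SRF-ICA1L and 3 labelled SRF-PDGFRB, each numbered 1 to 3. The fits behind the p-values took in all 18, so the other groups also enter the estimate of the spread. All 18 libraries came from MSC-hTERT, a human mesenchymal stem cell line immortalized with the catalytic subunit of telomerase, grown in a serum medium with FGF-2, ascorbic acid and heparin. The other 4 groups, also of 3 libraries each, were labelled pMSCV (named after a retroviral vector, used here as the empty control), SRF (the unfused gene), SRF-FOXO1 and SRF-RELA. The pMSCV and SRF libraries give the control levels printed below. The labels do not say which stretch of SRF or of its partner a construct holds, whether a line is 1 clone or a pool, how long the cells had carried the construct, or whether the libraries of a group came from separate cultures. P-values therefore measure only the spread between these libraries, which may be technical.

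Serum response factor, SRF, regulates transcription by binding a DNA sequence called the CArG box. With the actin-sensing cofactors of the myocardin family it drives genes of the cytoskeleton and of smooth muscle contraction, and with ETS-domain cofactors phosphorylated by ERK it drives immediate early genes such as FOS and EGR1. ICA1L is a cytoplasmic protein with a BAR domain, a fold that binds curved membranes. PDGFRB is the receptor tyrosine kinase for platelet-derived growth factor on perivascular and other mesenchymal cells, and it signals through ERK, PI3 kinase and STAT proteins. Interferon induces chemokines, guanylate-binding proteins and the class II antigen presentation genes. CISH and the SOCS genes are feedback inhibitors that cytokine receptors and STAT5 induce.

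Total counts of the 6 libraries ran from 19362319 to 29132937, and 26486 to 27958 genes had a count. CPM below is the usual count scaled to the library total, with no other factor. All 6 markers of mesenchymal stromal cells were expressed. Of the markers of other cell types, 2 of 5 for blood cells (CD3E among them), 2 of 4 for skeletal muscle (MYOD1 and MYOG) and 1 of 4 for nerve (NEFL) were at 0 in the 6 libraries. The blood cell markers summed to 2.93 to 4.09 CPM in SRF-ICA1L and 1.18 to 2.38 CPM in SRF-PDGFRB, the muscle markers to 2.96 to 3.17 and 2.47 to 3.45 CPM, and the nerve markers to 3.51 to 6.37 and 3.15 to 4.53 CPM. The 5 endothelial markers, none at 0, summed to 16.2 to 32.1 CPM in SRF-ICA1L and 24.7 to 28.1 CPM in SRF-PDGFRB, and the 5 epithelial markers to 98.7 to 232 and 52.2 to 107 CPM. With the block, 1 blood cell, 1 endothelial and 3 epithelial markers were called, and the part of these cell types in the results was not tested. The 10 most abundant genes took 17.4% of the counts in SRF-ICA1L replicate 2 and 9.06% in SRF-PDGFRB replicate 3, with FN1 alone at 7.44% in the former. Libraries with the same number deviated together from their group means, with correlations across genes of 0.415, 0.377 and 0.357 for numbers 1, 2 and 3. Libraries with different numbers gave -0.268 to -0.0835. Deviations from a group mean sum to 0, so these negative values follow from the positive ones and add no information on the pairing. The tests between the fusions were run without and with the replicate number as a block. Values against pMSCV are without the block unless stated.

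The construct genes were read first. SRF was at 274, 277 and 274 CPM in SRF-ICA1L replicates 1, 2 and 3 and at 337, 159.7 and 261 CPM in SRF-PDGFRB replicates 1, 2 and 3, against 57.3 to 64.4 CPM in pMSCV. The libraries labelled SRF held more, 678 to 1122 CPM, so this control is not matched to the fusions in SRF level. Against it the log2 fold change was -1.70 (edgeR adjusted p = 0.00157) in SRF-ICA1L and -1.94 (edgeR adjusted p = 0.00319) in SRF-PDGFRB. SRF counts, which hold native and construct reads together, overlapped between the fusions, with a log2 fold change of SRF-ICA1L over SRF-PDGFRB, positive where SRF-ICA1L is higher, of 0.24 (edgeR adjusted p = 0.747, or 0.618 with the block, SE 0.23). Without SRF-PDGFRB replicate 2 the sign turned, to -0.0061. ICA1L, at chr2:202773150-202871985 on GRCh38, was at 153, 119 and 134 CPM in SRF-ICA1L and 12.7, 10.6 and 11.6 CPM in SRF-PDGFRB. Every SRF-ICA1L library stood far above every SRF-PDGFRB library, and ICA1L had a log2 fold change of 3.66 (edgeR adjusted p = 4.18e-09, or 1.33e-11 with the block, SE 0.17). PDGFRB, at chr5:150113837-150155872, was at 507, 438 and 408 CPM in SRF-ICA1L and 929.8, 526 and 673 CPM in SRF-PDGFRB. Native PDGFRB is expressed in this line, at 381 to 502 CPM in pMSCV, and the groups did not overlap. PDGFRB missed the threshold, at a log2 fold change of -0.54 (edgeR adjusted p = 0.357, SE 0.23) without the block and -0.52 (edgeR adjusted p = 0.131, SE 0.19) with it. The ICA1L call held whichever library was left out. ICA1L counts therefore followed the label, and PDGFRB counts did so in direction only.

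Across the genome, 152 of 18544 tested genes were called at an adjusted p under 0.05 in edgeR's quasi-likelihood test without the block, or 0.82%. Of these, 105 (0.566% of the tested genes) were higher in SRF-ICA1L and 47 (0.253%) lower. With the replicate number as a block, 883 genes were called (4.76%), 559 higher (3.01%) and 324 lower (1.75%). All 152 genes were among the 883 with the same direction, and 731 were called only with the block. The share of calls that were higher was 69.1% without the block and 63.3% with it. It depended on the scaling: with library totals alone in place of TMM (trimmed mean of M values) factors, 90 genes were higher and 78 lower without the block, and 408 higher and 623 lower with it. Total scaling moved the median log2 fold change of all tested genes from 0.0034 to -0.11, so a small positive fold change below is relative to the TMM scale. Without 1 library at a time, the count without the block ran from 43, without SRF-PDGFRB replicate 3, to 160, without SRF-ICA1L replicate 1. In between were 49, 65, 61 and 52 genes without SRF-ICA1L replicate 2, SRF-ICA1L replicate 3, SRF-PDGFRB replicate 1 and SRF-PDGFRB replicate 2.

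**Figure D1:**
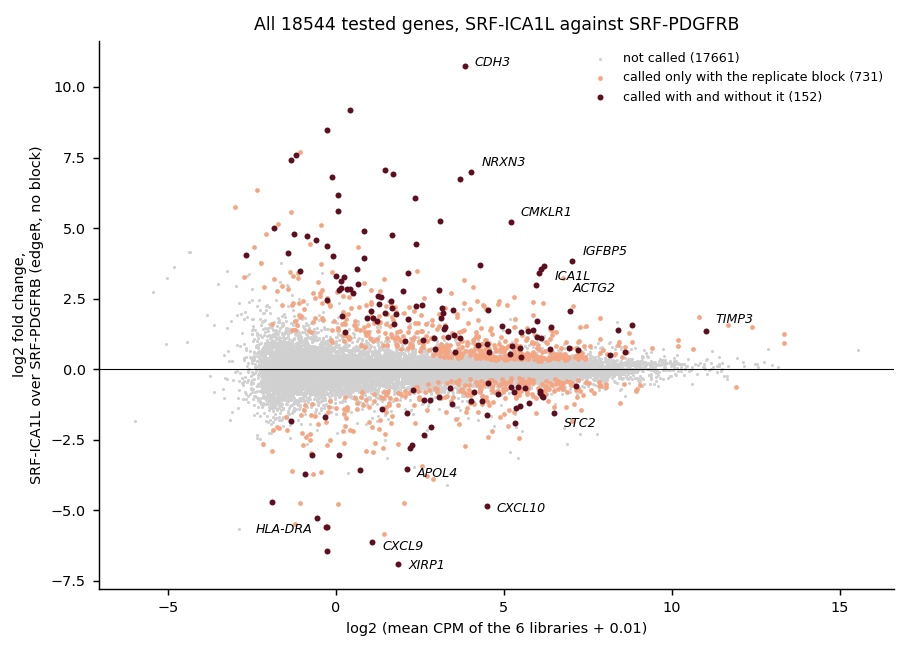
Log2 fold change of SRF-ICA1L over SRF-PDGFRB (vertical axis, edgeR fit without the block) against the log2 of the mean CPM over the 6 libraries plus 0.01 (horizontal axis), 1 point per tested gene. The 152 genes called with and without the block are dark red, the 731 called only with it are orange, and CDH3 lies highest and XIRP1 lowest.

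The 105 higher genes mostly parted from the control libraries on the SRF-ICA1L side. In 87 of them all 3 SRF-ICA1L libraries lay above all 6 pMSCV and SRF libraries, a pattern that 4.61% of all tested genes showed. SRF-PDGFRB lay above the controls in 2 of the 105, below them in 9 and within their range in 94. Of the 47 lower genes, 24 had all SRF-PDGFRB libraries above the controls (2.46% of all tested genes), and 18 had all SRF-ICA1L libraries below them (2.09%). Both patterns met in 4 of those genes. With the block, 283 of the 559 higher genes had SRF-ICA1L above the controls, and of the 324 lower genes 60 had SRF-PDGFRB above them and 63 had SRF-ICA1L below them. In all 152 genes called without the block the CPM values of the groups did not overlap, as in 23.8% of all tested genes, and the 3 same-numbered differences had one sign, as in 46.7%. These positions reuse the libraries of the comparison and are descriptions.

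The largest fitted difference was in CDH3, which encodes P-cadherin, a calcium-dependent cell adhesion protein of epithelia, at chr16:68636189-68722616. It had 416, 1098 and 733 counts, or 16.5, 38.1 and 30.6 CPM, in SRF-ICA1L, and 1, 0 and 0 counts in SRF-PDGFRB. CDH3 was also at 0 in every pMSCV library and at most 0.0383 CPM in SRF. The ratio of the group totals was 2224, with an exact 95% interval of 399 to 87890.0 that covers counting error only, and edgeR called CDH3 at an adjusted p of 0.000692, or 1.27e-08 with the block. KRT8, KRT18 and CDH1, the 3 epithelial markers tested, were higher only with the block, and their part in this result was not tested. NRXN3 encodes neurexin 3, a synaptic adhesion protein, and had 16.9, 49.4 and 30.7 CPM in SRF-ICA1L. In SRF-PDGFRB NRXN3 had 0.174, 0.309 and 0.362 CPM, which rest on 5, 9 and 7 counts. With pMSCV at 0 to 0.258 CPM, its SRF-PDGFRB libraries were near the control level and its log2 fold change was 6.99 (edgeR adjusted p = 0.0123, or 3.22e-05 with the block, SE 1.17). LINC01614, a long non-coding RNA, was at 18.1, 40.1 and 17.7 against 0.453, 0.172 and 0.103 CPM, a log2 fold change of 6.74 (edgeR adjusted p = 0.00123, or 0.000142 with the block, SE 0.82). KRT17, an intermediate filament keratin of epithelia, was at 7.05, 31.7 and 11.4 against 0.522, 0.343 and 0.62 CPM, a log2 fold change of 5.24 (edgeR adjusted p = 0.0322, or 0.00107 with the block, SE 1.04). CMKLR1 encodes a receptor of the adipokine chemerin. In that gene both fusions stood above the controls, with 38.8, 104 and 70.6 CPM in SRF-ICA1L, 1.67, 1.82 and 2.89 CPM in SRF-PDGFRB and 0.177 to 0.688 CPM in pMSCV. CMKLR1 differed between the fusions by a log2 fold change of 5.22 (edgeR adjusted p = 0.00102, or 1.16e-08 with the block, SE 0.61). SYT12, of the synaptotagmin family of vesicle proteins, had 9.46, 15.5 and 5.05 against 0.627, 0.515 and 0.31 CPM and a log2 fold change of 4.45 (edgeR adjusted p = 0.0123, or 0.000721 with the block, SE 0.76).

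MEST, an imprinted gene for a hydrolase-like membrane protein at chr7:130486171-130506465, was at 78.7, 101 and 197 CPM in SRF-ICA1L and 4.60, 17.4 and 13.0 CPM in SRF-PDGFRB. pMSCV, at 5.88 to 15.3 CPM, and SRF, at 6.45 to 26.6 CPM, overlapped with SRF-PDGFRB and not with SRF-ICA1L, and MEST had a log2 fold change of 3.53 (edgeR adjusted p = 0.0211, or 1.21e-05 with the block, SE 0.66). COPG2IT1, a non-coding RNA of the same imprinted region, was at 2.93, 8.96 and 12.4 against 0.418, 1.44 and 0.516 CPM, with a log2 fold change of 3.42 (edgeR adjusted p = 0.022, or 0.000427 with the block, SE 0.66). The strand setting of the counting is not given in the sources used here, so reads of overlapping genes cannot be told apart and these 2 genes may not be separate. The call of MEST without the block was lost on leaving out any 1 library but SRF-ICA1L replicate 1 (adjusted p up to 0.121), and that of COPG2IT1 on leaving out any 1 library but SRF-ICA1L replicate 1 or SRF-PDGFRB replicate 2 (adjusted p up to 0.134). NRXN3 lost its call on leaving out SRF-PDGFRB replicates 1, 2 or 3 (adjusted p up to 0.081), KRT17 on leaving out any 1 library but SRF-ICA1L replicate 1 (adjusted p up to 0.147) and SYT12 on leaving out any 1 library but SRF-ICA1L replicates 1 or 3 (adjusted p up to 0.084). The calls of CDH3, LINC01614 and CMKLR1 were kept whichever library was left out.

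**Figure D2:**
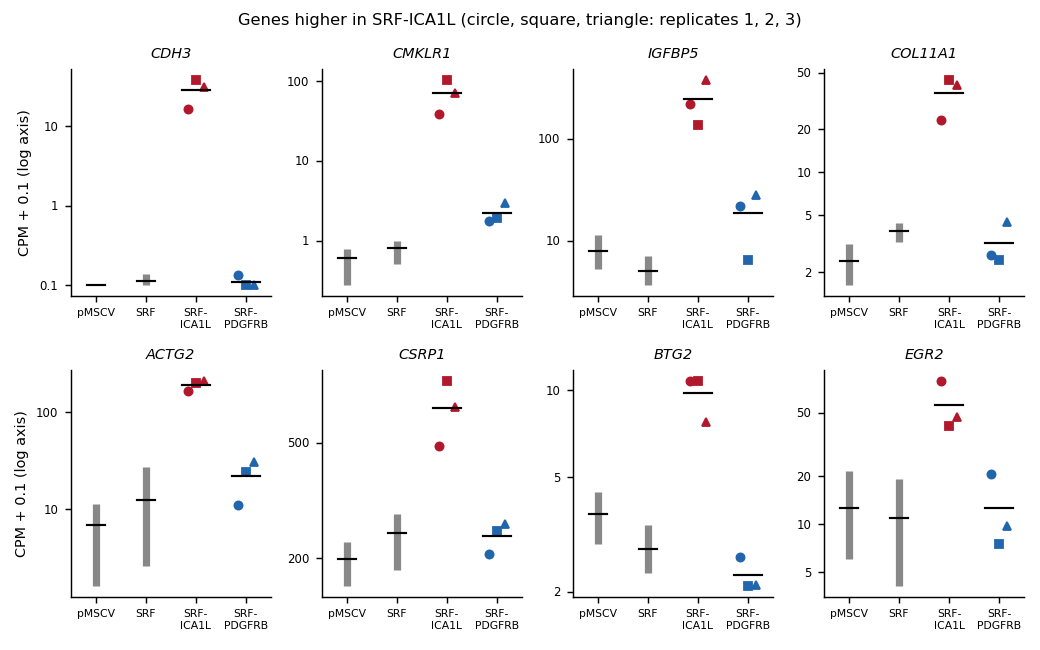
CPM plus 0.1 on a log axis for 8 genes higher in SRF-ICA1L. Grey bars span the lowest to the highest of the 3 pMSCV or SRF libraries, coloured points are single SRF-ICA1L (red) and SRF-PDGFRB (blue) libraries, and short black lines are group means; the 3 red points lie above the 3 blue points in each gene.

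Every smooth muscle contractile gene that edgeR called in either fit was higher in SRF-ICA1L. Of 24 listed, 19 passed the count filter and 18 of these had a positive fold change (16 with total scaling), with a median log2 fold change of 0.91 against 0.0034 over all tested genes. The test called 2 of the 19 without the block, CSRP1 and PLN (10.5%, against 0.82% of all tested genes). With the block it called 8 (42.1%, against 4.76%), all higher. CSRP1, a LIM-domain protein that binds actin-bundling partners, was at 488, 818 and 661 CPM in SRF-ICA1L and 206, 247 and 262 CPM in SRF-PDGFRB. SRF-PDGFRB lay within the control range of 159.9 to 227 CPM in pMSCV and 182 to 284 CPM in SRF, and CSRP1 had a log2 fold change of 1.58 (edgeR adjusted p = 0.0382, or 0.000214 with the block, SE 0.33). PLN, phospholamban, the inhibitor of the calcium pump of the sarcoplasmic reticulum, was at 4.83, 4.65 and 3.17 against 0.592, 0.549 and 1.24 CPM, with a log2 fold change of 2.57 (edgeR adjusted p = 0.0138, or 0.00162 with the block, SE 0.46). The calls without the block were lost on leaving out any 1 library but SRF-ICA1L replicate 1 (adjusted p up to 0.182) for CSRP1 and on leaving out SRF-ICA1L replicate 2 or SRF-PDGFRB replicates 1 or 2 (adjusted p up to 0.0899) for PLN.

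ACTG2, the gamma actin of enteric smooth muscle, had the widest difference of the list. It was at 165, 200.5 and 211 CPM in SRF-ICA1L, 11.1, 24.4 and 30.7 CPM in SRF-PDGFRB, 1.52 to 11.4 CPM in pMSCV and 2.52 to 27.4 CPM in SRF. The groups did not overlap, yet its log2 fold change of 3.25 (edgeR adjusted p = 0.0725, SE 0.77) missed the threshold without the block and passed with it, at 3.41 (edgeR adjusted p = 0.00441, SE 0.55). Its promoter is shown because SRF binds the CArG box, and the 250 bases before the RefSeq start of ACTG2 (chr2:73892758-73893007 on GRCh38.p14, plus strand) hold 2 matches, in capitals, at positions -110 and -73 from the start:
ACTG2: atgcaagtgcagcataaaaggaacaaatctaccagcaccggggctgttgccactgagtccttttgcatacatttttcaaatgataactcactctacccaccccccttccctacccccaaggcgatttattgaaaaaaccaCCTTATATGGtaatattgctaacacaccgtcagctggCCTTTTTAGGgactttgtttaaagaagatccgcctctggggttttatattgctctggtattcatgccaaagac
Among the 14 tested genes of the smooth muscle list with a RefSeq window, 3 held a CArG box (ACTG2, MYLK and SMTN), or 21.4%, against 1.56% of the 12153 tested genes with a window. Of the genes higher without the block 2 of 76 with a window held one (2.63%), and of those higher with the block 19 of 394 (4.82%). MYLK, myosin light chain kinase, was the gene of the list with a negative fold change, -0.70 (edgeR adjusted p = 0.47, or 0.22 with the block, SE 0.36). A match is a description of the letters and no evidence of binding, and windows of 250 bases leave out CArG boxes elsewhere.

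The other smooth muscle genes called with the block were ACTA2, TAGLN, LMOD1, TPM1 and MYL9. LMOD1, leiomodin 1, which nucleates actin filaments in smooth muscle, was at 17.1, 42.2 and 31.9 CPM in SRF-ICA1L and 3.90, 9.41 and 5.22 CPM in SRF-PDGFRB. Within each number SRF-ICA1L was higher, by 2.19, 2.31 and 2.70 on the log2 scale for numbers 1, 2 and 3, and LMOD1 had an edgeR adjusted p of 0.0956 without the block and 0.000833 with it. ACTA2, smooth muscle alpha actin, was at 66.7, 136 and 69.0 against 17.3, 31.4 and 29.9 CPM and had a log2 fold change of 1.92 (edgeR adjusted p = 0.159, SE 0.57) without the block and 1.88 (edgeR adjusted p = 0.0333, SE 0.45) with it. TAGLN, transgelin, was at 327, 740.5 and 668 against 173, 292 and 313 CPM, with an edgeR adjusted p of 0.428 without the block and 0.0263 with it. The block calls of ACTA2 and TAGLN were lost on leaving out any 1 library (adjusted p up to 0.159) and on leaving out any 1 library but SRF-PDGFRB replicate 1 (adjusted p up to 0.145), and those of ACTG2 and LMOD1 were kept in each such fit. CNN1, calponin 1, at 17.7, 50.05 and 43.2 against 10.2, 26.2 and 24.1 CPM, was not called in either fit (edgeR adjusted p = 0.612 and 0.0516). MYH11, the heavy chain of smooth muscle myosin and a late differentiation marker, was at 0.752, 1.53 and 0.918 CPM and 0.766, 1.13 and 1.19 CPM. The MYH11 groups overlapped, its log2 fold change was 0.19 (edgeR adjusted p = 0.96, or 0.954 with the block, SE 0.93), and its sign turned in 2 of the 6 fits that left out a library, without SRF-ICA1L replicate 2 (-0.21) and without SRF-PDGFRB replicate 1 (-0.00088). The actin genes are near-identical copies in their coding parts, so counts of ACTG2 and ACTA2 may share reads.

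Against pMSCV, each fusion's own values for these genes were as follows, with the pMSCV libraries shared by both comparisons. For ACTG2 the log2 fold change was 4.93 (edgeR adjusted p = 0.014, SE 0.84) in SRF-ICA1L and 1.69 (edgeR adjusted p = 1, SE 0.75) in SRF-PDGFRB. For CSRP1 it was 1.85 (edgeR adjusted p = 0.019, SE 0.34) and 0.27 (edgeR adjusted p = 1, SE 0.33), and for LMOD1 3.20 (edgeR adjusted p = 0.0454, SE 0.65) and 0.78 (edgeR adjusted p = 1, SE 0.63). The comparison of SRF-ICA1L with pMSCV called 85 genes higher (0.458%), 4 of them in the smooth muscle list, and that of SRF-PDGFRB with pMSCV called 6 (0.0324%), 0 of them in the list. With the block, edgeR called 13 of the 19 higher in SRF-ICA1L (3.26% of all tested genes were) and 0 in SRF-PDGFRB (0.129%), where 3 of the 19 were under an unadjusted p of 0.05 without the block and 8 with it. These counts by themselves do not test the fusions against each other. In SRF, LMOD1 was at 20.4 to 24.1 CPM, within the SRF-ICA1L range and above every SRF-PDGFRB library. Against SRF, LMOD1 was at 0.54 (edgeR adjusted p = 0.784) in SRF-ICA1L. In SRF-PDGFRB it was at -1.87 (edgeR adjusted p = 0.263, or 0.00673 with the block). ACTA2, at 35.9 to 61.3 CPM in SRF, lay between the fusions. SRF-ICA1L stayed higher against SRF in ACTG2 (4.04, edgeR adjusted p = 0.0297) and CSRP1 (1.52, edgeR adjusted p = 0.0479).

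Cytoskeletal SRF targets, the ubiquitous actin-binding genes, had small fold changes. All 30 had a positive fold change, with a median of 0.22, but 7 of them turned negative with total scaling, where the median was 0.097. LIMA1, an actin-bundling LIM protein also called EPLIN, was called in both fits. That was 3.33% of the list in each fit, against 0.82% of all tested genes without the block and 4.76% with it. It was at 306, 308 and 345 CPM in SRF-ICA1L and 235, 258 and 246 CPM in SRF-PDGFRB, groups that did not overlap, with a log2 fold change of 0.49 (edgeR adjusted p = 0.0223, or 0.0043 with the block, SE 0.10). The other 29 were not called in either fit, and the largest of their fold changes was that of MICAL2, a gene named after its value was seen, at 0.67 (edgeR adjusted p = 0.517, or 0.21 with the block, SE 0.37). LIMA1 lost the call without the block on leaving out any 1 library but SRF-ICA1L replicate 1 (adjusted p up to 0.144).

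Striated muscle genes were mostly too low to test, with 12 of 29 passing the filter, and those that moved did so in both directions. EdgeR called 2 of the 12 without the block (16.7%, against 0.82% of all tested genes) and 3 with it (25%, against 4.76%). MYOZ1, a calcineurin-binding protein of the sarcomere Z-disc, had 15, 46 and 9 counts in SRF-ICA1L and 0 in every SRF-PDGFRB library. Taken against a floor of 3 counts per library, MYOZ1 was at least 7.08-fold higher, and edgeR called it at an adjusted p of 0.0138, or 0.000459 with the block. XIRP1, an actin-binding protein of the intercalated disc and of myotendinous junctions, went the other way. It had 4, 0 and 0 counts in SRF-ICA1L and 455, 63 and 66 counts in SRF-PDGFRB, with at most 0.0742 CPM in any pMSCV or SRF library. XIRP1 was the tested gene with the most negative log2 fold change, -6.89 (edgeR adjusted p = 0.0125, or 0.00291 with the block, SE 1.19), a fitted value that rests on the few counts in SRF-ICA1L. Its SRF-PDGFRB replicate 1, at 15.8 CPM, stood above the other 2, at 2.16 and 3.41 CPM. LDB3, another Z-disc gene, was at 2.02, 7.29 and 3.46 against 0.383, 1.13 and 0.465 CPM and was called only with the block (edgeR adjusted p = 0.269 without it and 0.0151 with it, lost on leaving out SRF-ICA1L replicate 2 or SRF-PDGFRB replicates 2 or 3 (adjusted p up to 0.122)). The calls of MYOZ1 and XIRP1 without the block were lost on leaving out SRF-PDGFRB replicates 1, 2 or 3 (adjusted p up to 0.0665) and on leaving out SRF-ICA1L replicates 2 or 3 (adjusted p up to 0.0829).

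Immediate early genes, the fast transcriptional response to serum and ERK, were called mainly with the block. Of 28 tested, 1 was called without the block, BTG2 (3.57%, against 0.82% of all tested genes), and 8 with it (28.6%, against 4.76%), 7 higher and 1 lower. The list's median difference was 0.52, -0.077 and 0.20 on the log2 scale in numbers 1, 2 and 3. BTG2, an antiproliferative gene of the BTG/TOB family, was at 10.7, 10.7 and 7.68 CPM in SRF-ICA1L and 2.54, 1.99 and 2.01 CPM in SRF-PDGFRB. All SRF-ICA1L libraries lay above and all SRF-PDGFRB libraries below the pMSCV range of 2.84 to 4.32 CPM, and BTG2 had a log2 fold change of 2.26 (edgeR adjusted p = 0.00044, or 2.31e-05 with the block, SE 0.23). The SRF libraries, at 2.22 to 3.30 CPM, overlapped with SRF-PDGFRB. The BTG2 call held whichever library was left out.

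EGR2, a zinc-finger transcription factor, was at 79.6, 41.4 and 46.9 CPM in SRF-ICA1L and 20.5, 7.45 and 9.71 CPM in SRF-PDGFRB. For EGR2 the log2 fold change was 2.26 (edgeR adjusted p = 0.0948, SE 0.58) without the block and 2.35 (edgeR adjusted p = 5.73e-05, SE 0.23) with it. Both groups were highest in number 1, and numbers 1, 2 and 3 differed by 2.03, 2.62 and 2.37 on the log2 scale. EGR2 is shown because it is a classic SRF target whose groups did not overlap. In 1 of its 3 RefSeq windows (chr10:62816367-62816616, GRCh38.p14, minus strand, printed in the direction of transcription) the CArG box, in capitals, starts 71 bases before the start:
EGR2: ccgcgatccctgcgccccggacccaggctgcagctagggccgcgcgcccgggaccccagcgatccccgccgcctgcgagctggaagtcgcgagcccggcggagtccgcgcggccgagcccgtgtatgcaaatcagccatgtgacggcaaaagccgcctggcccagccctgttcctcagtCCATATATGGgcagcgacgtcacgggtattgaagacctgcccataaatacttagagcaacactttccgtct
EGR3, its relative, was at 56.4, 15.6 and 29.5 and 16.5, 2.85 and 2.69 CPM and overlapped between the groups, with an edgeR adjusted p of 0.332 without the block and 0.000461 with it. FOS, a subunit of AP-1, ranged over the numbers far more than between the fusions: it was at 836, 34.4 and 427 CPM in SRF-ICA1L and 449, 21.2 and 381 CPM in SRF-PDGFRB, lowest in replicate 2 of both. FOS was not called, with edgeR adjusted p of 0.912 without the block and 0.235 with it. EGR1 showed the same order, at 913, 224 and 463 and 597, 67.3 and 392 CPM, with adjusted p from edgeR of 0.85 and 0.0957. FOSL1, the AP-1 subunit FRA1, was the one lower with the block, at 14.7, 6.22 and 13.7 CPM in SRF-ICA1L and 42.4, 18.2 and 26.2 CPM in SRF-PDGFRB, and the log2 fold change was -1.23 (edgeR adjusted p = 0.00191, or 0.15 without the block, SE 0.19). The remaining 4 higher with the block were EGR4, ARC, IER5 and KLF2.

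Feedback genes of the ERK pathway had a negative fold change in 13 of 20, or 65%, against 49.4% of all tested genes, with a median of -0.23. With total scaling it was negative in 16, or 80%, against 66.5% of all tested genes. The median difference was -0.033, -0.12 and -0.50 in numbers 1, 2 and 3. Without the block edgeR called 0 of them, the smallest adjusted p being 0.113 for CCND1, while 6 were under an unadjusted p of 0.05 and DESeq2 called 1. With the block, SPRED1, SPRY4 and ETV4 were lower and DUSP5 higher, or 20% of the list, against 4.76% of all tested genes. SPRY4, an inhibitor of receptor tyrosine kinase signalling, was at 22.8, 9.90 and 10.2 CPM in SRF-ICA1L and 43.4, 25.4 and 21.8 CPM in SRF-PDGFRB, with a log2 fold change of -0.99 (edgeR adjusted p = 0.0177, or 0.305 without the block, SE 0.22) with the block. ETV4, an ETS transcription factor induced by ERK, was at 44.5, 19.1 and 25.2 against 59.9, 53.7 and 53.1 CPM, a block value of -0.85 (edgeR adjusted p = 0.0247, or 0.171 without the block, SE 0.20). SPRED1, which recruits neurofibromin to RAS, was at 106, 64.2 and 67.8 against 157, 118 and 117 CPM, a block value of -0.62 (edgeR adjusted p = 0.0119, or 0.315 without the block, SE 0.13). DUSP5, the nuclear ERK phosphatase, was at 59.2, 23.5 and 40.4 against 37.2, 15.2 and 25.9 CPM, a block value of 0.76 (edgeR adjusted p = 0.0131, or 0.43 without the block, SE 0.16). All 4 block calls were lost in some fits that left out 1 library: on leaving out any 1 library but SRF-ICA1L replicate 1 or SRF-PDGFRB replicate 2 (adjusted p up to 0.116) for SPRY4, on leaving out any 1 library but SRF-ICA1L replicate 1 or SRF-PDGFRB replicate 1 (adjusted p up to 0.161) for ETV4, on leaving out SRF-ICA1L replicates 2 or 3 or SRF-PDGFRB replicate 2 (adjusted p up to 0.0843) for SPRED1 and on leaving out any 1 library but SRF-ICA1L replicate 2 or SRF-PDGFRB replicate 1 (adjusted p up to 0.0925) for DUSP5. DUSP6, the cytoplasmic ERK phosphatase, was at 214, 71.6 and 130.4 and 222, 189 and 263 CPM and was not called (edgeR adjusted p = 0.664 and 0.13). DUSP2, another DUSP gene, is not on the list, was named after its value was seen, and was higher in both fits. It had 167, 151 and 174 counts in SRF-ICA1L and 2, 2 and 0 counts in SRF-PDGFRB. The log2 fold change of DUSP2 was 6.93 (edgeR adjusted p = 0.000536, or 0.000114 with the block, SE 0.78).

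Among SRF and its cofactors, NAB2 was called in both fits and MYOCD with the block. Of the 10 tested, that was 10% without the block (against 0.82% of all tested genes) and 20% with it (against 4.76%). NAB2, a corepressor of EGR proteins, was at 54.1, 47.3 and 50.4 CPM in SRF-ICA1L and 42.0, 42.5 and 38.5 CPM in SRF-PDGFRB, a narrow but non-overlapping difference with a log2 fold change of 0.41 (edgeR adjusted p = 0.0313, or 0.0048 with the block, SE 0.08). It lost the call without the block on leaving out any 1 library (adjusted p up to 0.203) and with the block on leaving out SRF-PDGFRB replicate 3 (adjusted p = 0.0519). MYOCD, myocardin, the cofactor that commits cells to smooth muscle genes, was lower in SRF-ICA1L within each number. It was at 0.198, 2.29 and 0.167 CPM in SRF-ICA1L and 1.25, 14.0 and 3.82 CPM in SRF-PDGFRB, with replicate 2 highest in both groups and the groups overlapping. MYOCD had an edgeR adjusted p of 0.457 without the block and 0.00976 with it, the latter lost on leaving out SRF-ICA1L replicate 3 or SRF-PDGFRB replicate 2 (adjusted p up to 0.0548). The other 8 genes of the list, with MRTFA, MRTFB and the ETS cofactors ELK1, ELK3 and ELK4 among them, were not called in either fit.

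Genes of the extracellular matrix and its growth factor binding proteins were next on the higher side. IGFBP5, which binds insulin-like growth factors and matrix, was at 216, 136 and 378 CPM in SRF-ICA1L and 21.6, 6.28 and 27.7 CPM in SRF-PDGFRB. SRF-PDGFRB replicates 1 and 3 stood above the pMSCV range of 5.16 to 11.2 CPM and replicate 2 within it, and IGFBP5 had a log2 fold change of 3.83 (edgeR adjusted p = 0.00755, or 0.00126 with the block, SE 0.59). IGFBP3, the main IGF carrier in serum, was at 109.6, 69.0 and 151 against 11.2, 11.1 and 22.8 CPM, with a log2 fold change of 2.99 (edgeR adjusted p = 0.00849, or 0.000461 with the block, SE 0.47), a call lost on leaving out SRF-PDGFRB replicates 1 or 2 (adjusted p up to 0.064). Of 7 tested genes of the IGF list these 2 were called without the block (28.6%, against 0.82% of all tested genes). IGFBP6 and IGFBP7 joined them with it (57.1%, against 4.76%). IGFBP6 was at 46.0, 47.7 and 60.3 against 30.7, 23.2 and 37.8 CPM, a block value of 0.88 (edgeR adjusted p = 0.014, or 0.0871 without the block, SE 0.19), lost on leaving out any 1 library but SRF-ICA1L replicate 1 or SRF-PDGFRB replicate 1 (adjusted p up to 0.103). IGFBP7 was at 317, 599 and 414 against 179, 327 and 234 CPM, with differences of 0.91, 1.02 and 0.93 for numbers 1, 2 and 3 and an edgeR adjusted p of 0.26 without the block and 0.000718 with it. PAPPA, a protease that cleaves IGF binding proteins and is not on that list, was lower in SRF-ICA1L with the block: it was at 11.7, 18.4 and 7.80 against 42.2, 113 and 67.1 CPM, with a log2 fold change of -2.38 (edgeR adjusted p = 0.0132, or 0.135 without the block, SE 0.47), lost on leaving out any 1 library but SRF-ICA1L replicate 1 or SRF-PDGFRB replicate 1 (adjusted p up to 0.0796).

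Of 27 tested collagen genes, 1 was called without the block (3.7%, against 0.82% of all tested genes) and 8 with it (29.6%, against 4.76%), 7 higher and 1 lower. The median difference of the list was 0.0019 in number 1, 0.48 in number 2 and 0.41 in number 3. COL11A1, a chain of a minor fibrillar collagen found in cartilage and in activated fibroblasts, was at 23.2, 44.6 and 40.7 CPM in SRF-ICA1L and 2.54, 2.33 and 4.39 CPM in SRF-PDGFRB, which lay near the control range of 1.52 to 3.05 in pMSCV and 3.16 to 4.34 in SRF. COL11A1 had a log2 fold change of 3.70 (edgeR adjusted p = 0.00298, or 0.000204 with the block, SE 0.50), kept whichever library was left out. COL1A1 and COL1A2, the chains of type I collagen, were called only with the block. COL1A1 was at 8266, 20593 and 13200.0 against 6419.8, 7116 and 6030.1 CPM, with an edgeR adjusted p of 0.128 and 0.0205, and SRF-ICA1L replicate 2 was the highest library. COL1A2 was at 9108, 17906 and 12546 against 7337, 7985 and 7108 CPM, with an edgeR adjusted p of 0.148 and 0.0202. Both block calls were lost in fits without 1 library, COL1A1 on leaving out any 1 library but SRF-ICA1L replicate 1 or SRF-PDGFRB replicate 1 (adjusted p up to 0.135) and COL1A2 on leaving out any 1 library but SRF-ICA1L replicate 1 or SRF-PDGFRB replicate 1 (adjusted p up to 0.129). COL14A1, a fibril-associated collagen, was at 50.3, 111 and 38.5 against 16.4, 13.1 and 7.59 CPM, a block value of 2.57 (edgeR adjusted p = 0.00975, or 0.0932 without the block, SE 0.48), lost on leaving out SRF-PDGFRB replicates 2 or 3 (adjusted p up to 0.0678). COL10A1, the collagen of hypertrophic cartilage, was the one lower, at 104, 28.8 and 28.8 CPM in SRF-ICA1L and 367, 99.99 and 150.5 CPM in SRF-PDGFRB. The groups overlapped, numbers 1, 2 and 3 differed by -1.73, -1.64 and -2.28 on the log2 scale, and the block value was -1.90 (edgeR adjusted p = 0.0177, or 0.405 without the block, SE 0.40), lost on leaving out any 1 library but SRF-ICA1L replicate 1 or SRF-PDGFRB replicate 2 (adjusted p up to 0.0932).

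Other matrix genes gave 2 calls among 39 tested without the block, MGP and TIMP3 (5.13%, against 0.82% of all tested genes). With the block they gave 12 (30.8%, against 4.76%), 11 of them higher. The median difference of the list was 0.14, 0.40 and 0.38 in numbers 1, 2 and 3. TIMP3, a matrix-bound inhibitor of metalloproteinases, was at 3133, 2598 and 2912 CPM in SRF-ICA1L and 1111, 844 and 1753 CPM in SRF-PDGFRB, and the log2 fold change was 1.34 (edgeR adjusted p = 0.0415, or 0.0135 with the block, SE 0.29). MGP, matrix Gla protein, an inhibitor of calcification, was low in both, at 0.99, 3.72 and 0.501 against 0.0348, 0.206 and 0.103 CPM, with 1, 6 and 2 counts in SRF-PDGFRB and a fitted log2 fold change of 4.0 (edgeR adjusted p = 0.0359, or 0.00166 with the block, SE 0.84). The calls without the block were lost on leaving out any 1 library but SRF-PDGFRB replicate 3 (adjusted p up to 0.183) for TIMP3 and on leaving out any 1 library but SRF-ICA1L replicates 1 or 3 (adjusted p up to 0.215) for MGP, and with the block TIMP3 lost it on leaving out SRF-ICA1L replicate 1 or SRF-PDGFRB replicates 1 or 2 (adjusted p up to 0.0886). ASPN, asporin, a small leucine-rich proteoglycan, was at 21.8, 9.27 and 43.6 against 3.83, 1.37 and 3.72 CPM and was called with the block at 3.08 (edgeR adjusted p = 0.0158, or 0.0771 without the block, SE 0.63), lost on leaving out any 1 library but SRF-ICA1L replicates 1 or 2 (adjusted p up to 0.0898). OGN, osteoglycin of the same family, had 103, 30 and 91 counts in SRF-ICA1L and 10, 0 and 2 counts in SRF-PDGFRB, and was called with the block (edgeR adjusted p = 0.139 without it and 0.000811 with it). EFEMP1, fibulin 3, overlapped between the groups at 61.9, 182 and 121 and 25.9, 93.6 and 36.5 CPM but was higher in each pair, by 1.34, 1.11 and 1.84, with a block value of 1.41 (edgeR adjusted p = 0.00162, or 0.331 without the block, SE 0.21). FN1, fibronectin, was at 47401, 74420.0 and 48337 against 42173, 41573 and 33109 CPM, without overlap, and was not called (edgeR adjusted p = 0.455 and 0.236). The metalloproteinase MMP14 was the one lower with the block, at 4821, 1815 and 1933 against 6304, 3706 and 4379 CPM, groups that overlapped, with a block value of -0.74 (edgeR adjusted p = 0.0382, or 0.618 without the block, SE 0.19).

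Integrin and cadherin genes showed CDH3 without the block (3.85%, against 0.82% of all tested genes) and 4 higher and 1 lower with it (19.2%, against 4.76%), among 26 tested. The list as a whole was not higher, with 15 of 26 fold changes negative, or 57.7% against 49.4% of all tested genes, and a median of -0.096. ITGA7, the laminin-binding integrin subunit of muscle, was at 45.6, 90.6 and 47.1 CPM in SRF-ICA1L and 20.7, 19.2 and 17.9 CPM in SRF-PDGFRB, a block value of 1.66 (edgeR adjusted p = 0.0048, or 0.144 without the block, SE 0.29). CDH11, the cadherin of mesenchyme, was at 263, 323 and 300.0 against 165, 229.6 and 209.7 CPM, a block value of 0.67 (edgeR adjusted p = 0.00884, or 0.112 without the block, SE 0.13), lost on leaving out SRF-PDGFRB replicate 1 (adjusted p = 0.0568). CDH2, N-cadherin, was lower, at 323, 295 and 280.1 against 436, 551 and 402 CPM, a block value of -0.50 (edgeR adjusted p = 0.0345, or 0.205 without the block, SE 0.13), lost on leaving out any 1 library but SRF-ICA1L replicate 1 (adjusted p up to 0.204). CDH1, E-cadherin, the neighbour of CDH3 in the genome, was also higher with the block, on 0 or 1 count per library in SRF-PDGFRB. Of the 27 tested targets of TGF-beta and YAP, edgeR called 0 without the block and 3 with it (11.1%, against 4.76% of all tested genes). Without the block 3 were under an unadjusted p of 0.05 and DESeq2 called 0. ANKRD1, a YAP target of muscle and injured tissue, was at 34.7, 75.7 and 32.0 against 2.30, 17.6 and 9.50 CPM, with a block value of 2.77 (edgeR adjusted p = 0.0117, or 0.386 without the block, SE 0.54), lost on leaving out SRF-PDGFRB replicates 1, 2 or 3 (adjusted p up to 0.0754). NT5E, the ectonucleotidase CD73, was lower, at 444, 250.2 and 392 against 601, 588 and 728 CPM, with a block value of -0.71 (edgeR adjusted p = 0.0405, or 0.171 without the block, SE 0.19), lost on leaving out any 1 library but SRF-ICA1L replicate 1 (adjusted p up to 0.245).

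On the lower side, the interferon response list, the largest of the lists, had the most calls but not the lowest median. Of 53 tested, 43 had a negative fold change, or 81.1% against 49.4% of all tested genes, with a median of -0.32. With total scaling the shares were 88.7% and 66.5%. The median difference was -0.36, -0.098 and -0.67 in numbers 1, 2 and 3. Without the block 4 were called, all lower in SRF-ICA1L (CXCL10, CXCL9, APOL4 and GBP5). That was 7.55%, against 0.82% of all tested genes in either direction. With the block 8 were called, all lower (15.1%, against 4.76% of all tested genes in either direction). CXCL10, a chemokine that attracts T cells through CXCR3, was at 2.30, 1.56 and 0.25 CPM in SRF-ICA1L and 59.9, 29.9 and 40.9 CPM in SRF-PDGFRB. SRF-ICA1L was at the level of pMSCV (0.043 to 1.87 CPM) and SRF (0.306 to 2.33 CPM), all SRF-PDGFRB libraries were far above, and CXCL10 had a log2 fold change of -4.85 (edgeR adjusted p = 0.0221, or 0.00679 with the block, SE 0.91). CXCL9, another CXCR3 ligand, had 0, 3 and 1 counts in SRF-ICA1L and 233, 36 and 60 counts in SRF-PDGFRB, or 8.11, 1.24 and 3.10 CPM. CXCL9 was at most 0.139 CPM in any control library, and edgeR gave an adjusted p of 0.00849, or 0.00078 with the block. Against pMSCV, SRF-PDGFRB had a log2 fold change of 5.63 (edgeR adjusted p = 0.0733, SE 0.95) for CXCL10. CXCL9 had an edgeR adjusted p of 0.0479 in that comparison.

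The promoters of these 2 chemokines are shown because they moved together and stand in 1 cluster on chromosome 4, with the core of the interferon-stimulated response element in capitals, searched as GAAA, any 2 bases and GAAA again. Each window is the 250 bases before the RefSeq start on GRCh38.p14, minus strand, read in the direction of transcription, chr4:76023498-76023747 for CXCL10 with the match starting at -221 and chr4:76007510-76007759 for CXCL9 with the match starting at -171:
CXCL10: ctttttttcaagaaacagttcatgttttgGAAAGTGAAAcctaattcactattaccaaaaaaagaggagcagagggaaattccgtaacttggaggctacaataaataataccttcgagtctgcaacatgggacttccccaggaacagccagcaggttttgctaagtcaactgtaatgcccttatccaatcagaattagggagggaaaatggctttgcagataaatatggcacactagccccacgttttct
CXCL9: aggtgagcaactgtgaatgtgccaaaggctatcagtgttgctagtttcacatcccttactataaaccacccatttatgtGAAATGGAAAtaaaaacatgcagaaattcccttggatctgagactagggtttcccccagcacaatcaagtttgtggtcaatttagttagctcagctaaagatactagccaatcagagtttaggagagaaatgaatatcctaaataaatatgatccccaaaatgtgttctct
Of the 47 genes lower without the block, 36 had a window and 7 of these held that core on either strand, or 19.4%, against 3.59% of all tested genes with a window. They were CEACAM1, CXCL10, CXCL9, DNMBP, FEZ1, PIK3CD and TNFRSF1B. Among the 76 higher genes with a window, 1 held it (1.32%). With the block the share was 6.19% of the lower genes and 2.03% of the higher ones. Within the interferon list the core was in 22 of 37 windows, most of them of genes that were not called. CXCL11, another chemokine of that list, was tested and called in neither fit.

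APOL4, of the apolipoprotein L family, was at 0.832, 0.451 and 0.626 CPM in SRF-ICA1L and 6.30, 7.14 and 10.4 CPM in SRF-PDGFRB, with the controls at or under 0.729 CPM, and a log2 fold change of -3.52 (edgeR adjusted p = 0.000536, or 2.95e-05 with the block, SE 0.40). GBP5, a guanylate-binding protein of antimicrobial defence, was at 17.7, 18.5 and 11.3 against 79.7, 55.0 and 58.4 CPM. The pMSCV libraries reached from 14.4 to 43.8 CPM, and GBP5 had a log2 fold change of -1.90 (edgeR adjusted p = 0.0347, or 0.0175 with the block, SE 0.39). IDO1, the enzyme that degrades tryptophan, was at 2.22, 0.104 and 0.292 against 21.4, 5.56 and 14.9 CPM and was called with the block, at -4.21 (edgeR adjusted p = 4.29e-05, or 0.125 without the block, SE 0.41). The last 3 called with the block were RSAD2, IRF1 and GBP4. IRF1, a transcription factor of the response, was at 28.2, 19.1 and 25.4 against 44.0, 36.3 and 48.8 CPM, a block value of -0.72 (edgeR adjusted p = 0.00261, or 0.113 without the block, SE 0.12). Without the block, the call of CXCL10 was lost on leaving out any 1 library but SRF-ICA1L replicate 1 (adjusted p up to 0.118), that of CXCL9 on leaving out SRF-ICA1L replicate 3 (adjusted p = 0.0507) and that of GBP5 on leaving out any 1 library (adjusted p up to 0.14). APOL4 kept its call in each such fit, and with the block GBP5 lost it on leaving out SRF-ICA1L replicates 2 or 3 or SRF-PDGFRB replicate 1 (adjusted p up to 0.0777).

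Class II antigen presentation genes followed. Of 13 listed, 7 passed the filter and 6 of these had a negative fold change, with a median log2 fold change of -1.64. EdgeR called 3 of the 7 without the block (42.9%, against 0.82% of all tested genes) and 5 with it (71.4%, against 4.76%), all lower. HLA-DRA, the alpha chain of the class II molecule HLA-DR, had 1, 0 and 1 counts in SRF-ICA1L and 70, 18 and 33 counts in SRF-PDGFRB. The ratio of SRF-PDGFRB to SRF-ICA1L was 61.1, with an exact 95% interval of 16.6 to 510.5 for counting error only, and edgeR gave an adjusted p of 0.00737, or 0.000551 with the block. CD74, the chaperone of class II molecules, was at 1.82, 1.67 and 2.17 CPM in SRF-ICA1L and 12.3, 5.94 and 12.8 CPM in SRF-PDGFRB, with pMSCV at 1.33 to 3.22 CPM and SRF at 1.91 to 3.99 CPM. Its log2 fold change was -2.33 (edgeR adjusted p = 0.0059, or 0.000153 with the block, SE 0.36), kept in every fit that left out 1 library. CTSS, the protease cathepsin S that degrades CD74, was at 14.7, 8.58 and 7.80 against 32.1, 30.9 and 41.7 CPM, a log2 fold change of -1.64 (edgeR adjusted p = 0.0415, or 0.00641 with the block, SE 0.35), lost on leaving out any 1 library but SRF-ICA1L replicate 1 (adjusted p up to 0.208). HLA-DRA lost its call on leaving out SRF-ICA1L replicate 2 (adjusted p = 0.0519). CIITA, the master regulator of class II genes, was at 0.713, 1.28 and 0.876 against 2.54, 2.33 and 2.74 CPM and was called with the block, at -1.31 (edgeR adjusted p = 0.00634, or 0.0657 without the block, SE 0.25). HLA-DPA1 was also called with the block. For class I and antigen processing genes edgeR gave 0 calls of 17 in either fit, where 3 were under an unadjusted p of 0.05 in each and DESeq2 called 0 without the block and 1 with it. Their fold changes ran from -0.43 to 0.10 on the log2 scale.

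**Figure D3:**
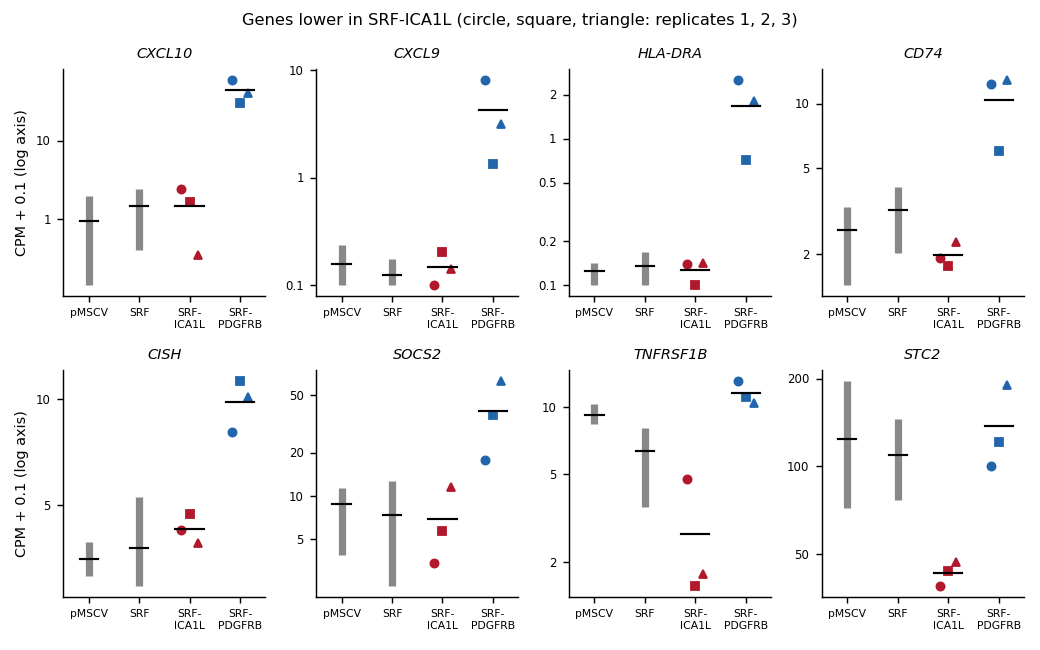
CPM plus 0.1 on a log axis for 8 genes lower in SRF-ICA1L, drawn as for the higher genes (grey bars, range of pMSCV or SRF; points, single libraries; black lines, means). In CXCL10, CXCL9, HLA-DRA, CD74, CISH and SOCS2 the blue SRF-PDGFRB points stand above the grey bars, in STC2 the red SRF-ICA1L points lie below them, and in TNFRSF1B 2 of the 3 red points do.

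Feedback genes of cytokine signalling that were called were lower in SRF-ICA1L too. CISH, the first of the SOCS family, was at 4.16, 4.62 and 3.80 CPM in SRF-ICA1L and 7.97, 11.2 and 10.1 CPM in SRF-PDGFRB. SRF-PDGFRB lay above every control library, pMSCV being at 3.04 to 3.83 CPM, and CISH had a log2 fold change of -1.10 (edgeR adjusted p = 0.0322, or 0.00144 with the block, SE 0.23). Its 250 bases before the start (chr3:50611775-50612024, GRCh38.p14, minus strand, in the direction of transcription) are shown for the words TTCNNNGAA, the palindrome that STAT dimers bind, of which there are 4, in capitals, starting at -241, -230, -129 and -112:
CISH: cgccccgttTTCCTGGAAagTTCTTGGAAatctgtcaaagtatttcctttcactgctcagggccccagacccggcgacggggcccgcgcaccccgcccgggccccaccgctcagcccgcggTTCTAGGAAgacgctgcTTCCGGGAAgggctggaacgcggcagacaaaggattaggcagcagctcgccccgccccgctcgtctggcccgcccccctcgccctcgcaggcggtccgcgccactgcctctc
Of all tested genes with a window, 7.74% held the word at least once, as did 8.33% of the lower and 6.58% of the higher genes called without the block. Each of the 5 printed windows holds matches of only 1 of the 3 motifs, so matches of different motifs could not overlap there. SOCS2, a brake on growth hormone signalling, was at 3.33, 5.59 and 11.5 CPM in SRF-ICA1L and 17.7, 36.5 and 63.3 CPM in SRF-PDGFRB. Both groups were lowest in replicate 1 and highest in replicate 3, the pairs differed by -2.30, -2.54 and -2.35, and SOCS2 had an edgeR adjusted p of 0.171 without the block and 0.000114 with it. SOCS1, the inhibitor of JAK kinases, was at 4.47, 3.79 and 5.76 against 9.12, 13.9 and 21.0 CPM, with an edgeR adjusted p of 0.0693 and 0.00125. Of the 14 genes of the list, these 3 were lower with the block (21.4%, against 4.76% of all tested genes called) and CISH without it too (7.14%, against 0.82%). The list as a whole leaned little, with 8 of 14 fold changes negative, or 57.1% against 49.4% of all tested genes, and a median of -0.12. CISH lost that call on leaving out any 1 library but SRF-PDGFRB replicate 1 (adjusted p up to 0.132). Against pMSCV, CISH had a log2 fold change of 0.41 (edgeR adjusted p = 0.565, SE 0.23) in SRF-ICA1L and 1.51 (edgeR adjusted p = 0.0379, SE 0.23) in SRF-PDGFRB.

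Inflammatory and NF-kB target genes were negative in 30 of 32, or 93.8% against 49.4% of all tested genes (96.9% and 66.5% with total scaling), with a median log2 fold change of -0.61. The median difference was -0.14, -0.85 and -1.27 in numbers 1, 2 and 3. Against pMSCV the list's median log2 fold change was -0.74 in SRF-ICA1L and 0.12 in SRF-PDGFRB, which share those pMSCV libraries. Calls were 1 without the block (3.12%, against 0.82% of all tested genes) and 3 with it (9.38%, against 4.76%). BIRC3, an inhibitor of apoptosis induced by NF-kB, was at 12.6, 7.64 and 8.39 CPM in SRF-ICA1L and 24.8, 20.7 and 22.1 CPM in SRF-PDGFRB, where pMSCV was at 12.8 to 23.0 CPM. BIRC3 was called in both fits, with a log2 fold change of -1.13 (edgeR adjusted p = 0.0154, or 0.00162 with the block, SE 0.21), lost without the block on leaving out any 1 library but SRF-ICA1L replicate 1 or SRF-PDGFRB replicate 2 (adjusted p up to 0.101). IL1A, the cytokine interleukin 1 alpha, was at 12.2, 7.68 and 7.43 against 27.3, 23.9 and 33.8 CPM, a block value of -1.53 (edgeR adjusted p = 0.0115, or 0.0721 without the block, SE 0.31), lost on leaving out SRF-ICA1L replicate 3 or SRF-PDGFRB replicates 2 or 3 (adjusted p up to 0.0664). CCL8, a monocyte chemokine, had 2, 3 and 0 counts against 60, 60 and 37, and was called with the block (edgeR adjusted p = 0.108 without it and 0.0294 with it, lost on leaving out any 1 library but SRF-PDGFRB replicate 2 (adjusted p up to 0.158)). The other 29 genes were not called. TNFRSF1B, the second receptor of TNF, is not on the list. SRF-PDGFRB, at 13.1, 11.1 and 10.4 CPM, was just above pMSCV at 8.34 to 10.2 CPM, and SRF-ICA1L, at 4.63, 1.46 and 1.67 CPM, was below pMSCV. Its log2 fold change was -2.05 (edgeR adjusted p = 0.0359, or 0.00142 with the block, SE 0.43), lost without the block on leaving out any 1 library but SRF-ICA1L replicate 1 (adjusted p up to 0.19).

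Further genes led the lower side outside those lists. SECTM1, an interferon-inducible membrane protein, was at 1.62, 0.799 and 0.751 CPM in SRF-ICA1L and 6.89, 7.55 and 9.71 CPM in SRF-PDGFRB, below and above the pMSCV range of 2.41 to 5.44 CPM, a log2 fold change of -2.81 (edgeR adjusted p = 0.00128, or 0.000185 with the block, SE 0.36). ALOX5AP, which presents arachidonic acid to 5-lipoxygenase in leukotriene synthesis, was at 0.95, 1.28 and 1.34 against 7.14, 6.04 and 12.1 CPM, a log2 fold change of -2.69 (edgeR adjusted p = 0.00513, or 0.000461 with the block, SE 0.41). Both calls held whichever library was left out. IQCD, a protein with an IQ motif, was at 2.26, 1.56 and 2.42 against 4.35, 7.59 and 7.85 CPM, a log2 fold change of -1.55 (edgeR adjusted p = 0.0125, or 0.00162 with the block, SE 0.27). STC2, a secreted glycoprotein of the stanniocalcin family, was at 38.7, 43.5 and 46.8 CPM in SRF-ICA1L, under each control library, and 99.97, 121 and 189.5 CPM in SRF-PDGFRB, and the log2 fold change was -1.55 (edgeR adjusted p = 0.0438, or 0.000616 with the block, SE 0.34). The calls of IQCD and STC2 without the block were lost on leaving out SRF-ICA1L replicate 2 or SRF-PDGFRB replicates 2 or 3 (adjusted p up to 0.0829) and on leaving out any 1 library (adjusted p up to 0.205).

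Further genes were called only with the block. SEMA3E, a semaphorin that guides vessels and axons, was at 6.89, 27.1 and 21.1 CPM in SRF-ICA1L and 0.627, 2.51 and 6.40 CPM in SRF-PDGFRB, groups that nearly touched. Its edgeR adjusted p was 0.32 without the block and 0.000204 with it. TSPAN2, a tetraspanin of smooth muscle and glia, was at 4.87, 13.8 and 10.5 against 0.487, 1.30 and 1.08 CPM, with an edgeR adjusted p of 0.0535 and 0.000286. LMCD1, a LIM-domain protein of muscle, was at 10.4, 56.5 and 21.9 against 3.10, 5.87 and 3.98 CPM, with an edgeR adjusted p of 0.0988 and 0.00217. On the lower side, SERPINB2, plasminogen activator inhibitor 2, was at 1.54, 0.278 and 0.668 against 28.4, 2.54 and 5.53 CPM, with SRF-PDGFRB replicate 1 far above the other 2. SERPINB4, a serine protease inhibitor, was at 0.95, 1.46 and 0.334 against 12.5, 9.89 and 10.1 CPM, and its counts may share reads with its near-identical neighbour SERPINB3. NKD1, an inhibitor of Wnt signalling, was at 8.0, 1.42 and 1.04 against 39.4, 17.6 and 17.7 CPM. The block values were -3.54 (edgeR adjusted p = 0.0205, or 0.0796 without the block, SE 0.78) for SERPINB2, -3.82 (edgeR adjusted p = 0.00834, or 0.174 without the block, SE 0.72) for SERPINB4 and -3.06 (edgeR adjusted p = 0.0213, or 0.278 without the block, SE 0.67) for NKD1. Those 3 were lost on leaving out any 1 library but SRF-PDGFRB replicates 2 or 3 (adjusted p up to 0.103), on leaving out SRF-ICA1L replicates 2 or 3 (adjusted p up to 0.0638) and on leaving out any 1 library but SRF-ICA1L replicate 1 or SRF-PDGFRB replicate 2 (adjusted p up to 0.114).

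**Figure D4:**
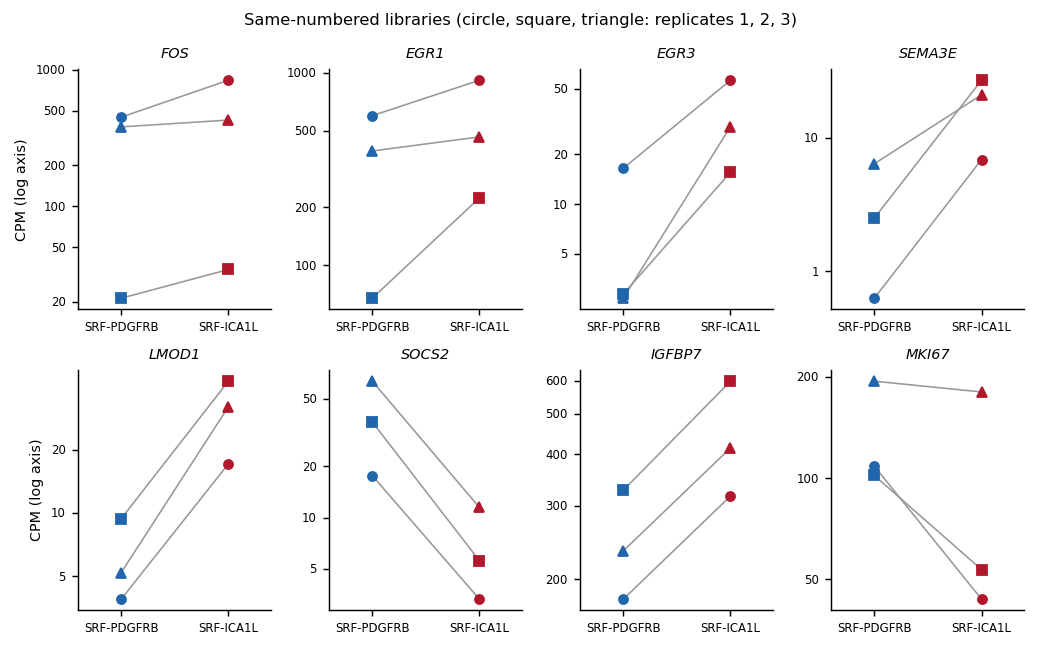
CPM (log axis) of 8 genes in SRF-PDGFRB (blue) and SRF-ICA1L (red), with grey lines joining the libraries of the same replicate number. FOS and EGR1 spread more over the numbers than between the fusions, the SOCS2 lines fall side by side, and in MKI67 the line of number 3 is nearly level while those of numbers 1 and 2 fall.

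Of 28 proliferation genes edgeR called 0 in either fit, with an adjusted p of 0.85 for MKI67, the marker of cycling cells, without the block and 0.158 with it. MKI67 was at 43.7, 53.5 and 181 CPM in SRF-ICA1L and 109, 102 and 194 CPM in SRF-PDGFRB. Under an unadjusted p of 0.05 were 2 of the 28 without the block and 12 with it, and DESeq2 called 0 and 4. The list had 25 negative fold changes and a median of -0.38, but its median was -0.93 and -0.72 in numbers 1 and 2 and 0.14 in number 3. Sterol synthesis genes had a positive fold change in all 18, also with total scaling, with a median of 0.48. Without the block edgeR called 0 of the 18, where 0 were under an unadjusted p of 0.05 and DESeq2 called 0, and with it edgeR called 1 (5.56%, against 4.76% of all tested genes) and DESeq2 3. Hypoxia and glycolysis genes gave 2 lower calls with the block among 19 (10.5%, against 4.76%) and 0 without it in edgeR, where 2 were under an unadjusted p of 0.05 and DESeq2 called 1. VEGFA, the vascular growth factor, was at 109, 93.3 and 119.6 against 145, 202 and 248 CPM, a block value of -0.75 (edgeR adjusted p = 0.0359, or 0.116 without the block, SE 0.19), and NDRG1, a stress gene, at 114, 58.1 and 64.6 against 171, 87.4 and 109.9 CPM, a block value of -0.53 (edgeR adjusted p = 0.0338, or 0.568 without the block, SE 0.14). These were lost on leaving out any 1 library but SRF-PDGFRB replicate 1 (adjusted p up to 0.195) and on leaving out any 1 library but SRF-ICA1L replicate 1 or SRF-PDGFRB replicate 2 (adjusted p up to 0.166). Amino acid response genes gave 1 higher call with the block among 15 (6.67%, against 4.76%) and 0 without it in edgeR, where 2 were under an unadjusted p of 0.05 and DESeq2 called 0. PHGDH, the first enzyme of serine synthesis, was at 30.3, 43.1 and 54.9 against 24.7, 24.4 and 30.3 CPM, a block value of 0.77 (edgeR adjusted p = 0.0428, or 0.282 without the block, SE 0.20), lost on leaving out any 1 library (adjusted p up to 0.191). The 8 tested lineage genes of bone, fat and cartilage and the 6 tested PDGF ligands and receptors gave 0 calls in edgeR in either fit. Of the lineage genes 0 were under an unadjusted p of 0.05 without the block and 2 with it, and DESeq2 called 0 in both. Of the PDGF genes 2 and 3 were, and DESeq2 called 0 and 1.

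**Figure D5:**
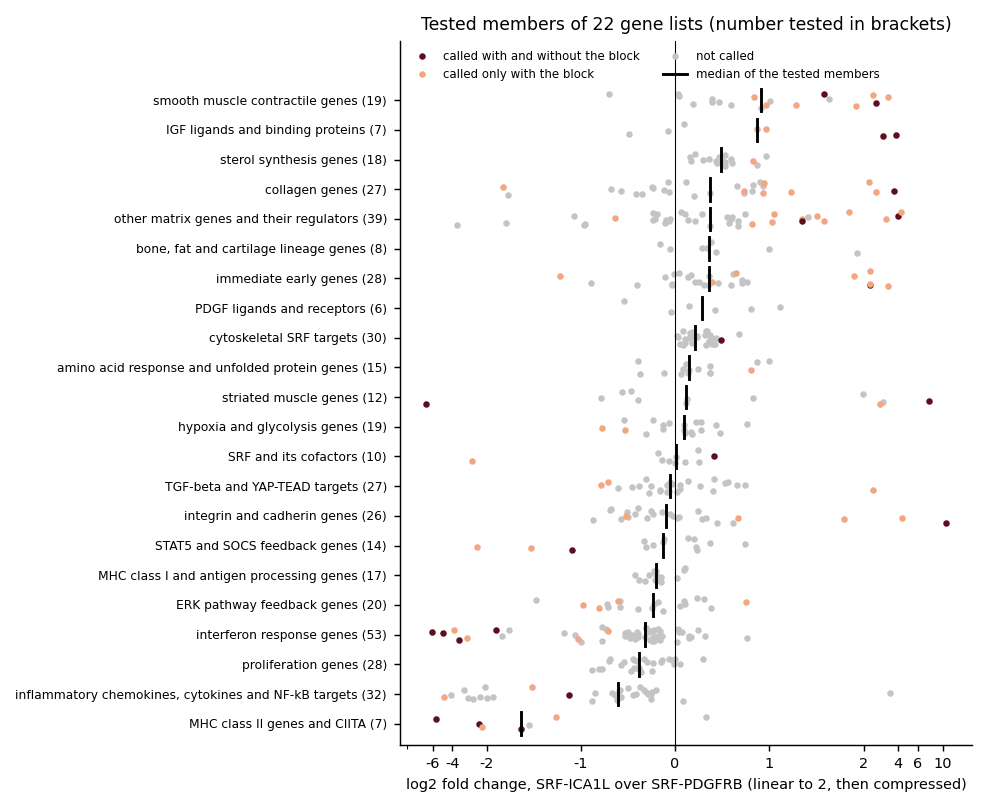
Log2 fold change of SRF-ICA1L over SRF-PDGFRB for the tested members of 22 gene lists, sorted by median (black line), 1 point per gene, on an axis that is linear up to 2 and compressed beyond. Smooth muscle genes have the highest median (0.91) and class II genes the lowest (-1.64), and dark red points mark genes called without and with the block, orange points those called only with it.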

How the data were processed

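The authors deposited 1 table of raw counts per gene for 18 libraries. Per the labels' protocols, TruSeq Stranded mRNA libraries were read on a NovaSeq 6000. Per the submitters' processing notes, the tools were FastQC 0.11.8, Trimmomatic 0.39, HISAT2 (version recorded as 2.12.1), featureCounts and Subread 2.0.3, on GRCh38. The annotation release and the strand setting are not given in the sources used here. Symbols came from a gene names table (61369 of 61487 identifiers) and GENCODE 29 (105), which also gave the coordinates.

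The counts were tested in edgeR 4.0.16 (R 4.3.3) with TMM factors, genes kept by filterByExpr with a minimum count of 10, and a robust quasi-likelihood F test on all 18 libraries with 1 coefficient per group (12 residual degrees of freedom). The second fit added the replicate number as a block (10 residual degrees of freedom). The labels do not say what the number marks. Same-numbered libraries of the compared groups correlated above 0.1 in all 3 pairs, so the pairing rests on the values alone. P-values were adjusted by Benjamini-Hochberg over 18544 genes, and standard errors are the absolute log2 fold change over the square root of F. Printed CPM is scaled to the library total, with no TMM factor. Differences between same-numbered libraries are on log2 CPM with a prior count of 2. Control positions use TMM-scaled CPM. A floor of 3 counts per library stood in for a group at 0, and intervals and floors cover counting error only. DESeq2 1.42.0, other scalings, filters and library sets were alternatives. The edgeR step was tested on simulated data.

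Members, lists, markers and tests were chosen with earlier results of these data known. The naming rule took SRF, ICA1L and PDGFRB, up to 10 called genes per direction of non-overlapping groups and a mean log2 CPM of 1 or more, up to 5 per direction called only with the block, up to 4 called genes per list, and 16 fixed genes. Some genes that the rule took are not reported here. Other genes in the text are called list members or were named after their values were seen. Promoter windows, 250 bases before to 50 after a start, are from RefSeq on GRCh38.p14, and 12153 of the tested genes had one. Motifs were searched in the 250 bases before the start, on both strands: the CArG box, TTCNNNGAA, and GAAA, any 2 bases and GAAA (the ISRE core).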

Additional observations from a re-analysis of the deposited data

Results flagged for a closer look

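In 16 of the 87 named genes looked at the fusions parted on both sides of pMSCV: against the pMSCV library of the same number, all 3 SRF-ICA1L libraries moved one way and all 3 SRF-PDGFRB libraries the other. Of all tested genes, 770 did so (4.15%), and most of the named genes were chosen because the fusions differ, so their share is a description. EdgeR called SRF-PDGFRB against pMSCV in 0 of the 16 without the block (smallest adjusted p = 0.0733) and in 2 with it, and SRF-ICA1L against pMSCV in 2 and 9. The values below are log2 fold changes of SRF-ICA1L over SRF-PDGFRB, and the edgeR test of that difference is the one in the report. ICA1L itself was among them, at 3.66. Of the genes called in both fits, SECTM1 (-2.81), ALOX5AP (-2.69), TNFRSF1B (-2.05), CTSS (-1.64) and IQCD (-1.55) were lower in SRF-ICA1L, and MGP (4.0), BTG2 (2.26), LIMA1 (0.49) and NAB2 (0.41) higher. Called only with the block were OGN (4.32), ASPN (3.17), EGR3 (2.28) and IGFBP6 (0.87) on the higher side and IDO1 (-3.90) and IL1A (-1.52) on the lower. MGP and OGN rest on 0 to 10 counts per library in SRF-PDGFRB, and the pMSCV libraries are shared by both arms. The rule did not use the SRF libraries, which overlapped with a fusion in some of these genes. In SRF, NAB2 was at 53.8 to 57.8 CPM and IGFBP6 at 37.8 to 76.5 CPM, both overlapping with SRF-ICA1L. BTG2, at 2.22 to 3.30 CPM in SRF, overlapped with SRF-PDGFRB. In others, such as SECTM1 at 2.19 to 3.37 CPM, SRF lay between the fusions.

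The SRF-FOXO1 and SRF-RELA libraries are not among those compared, but they entered the fits with all other libraries. Of the 43 named genes called higher in SRF-ICA1L, in either fit, 7 were raised in every one of the 6 SRF-FOXO1 and SRF-RELA libraries. Raised means at 3 times or more the highest of the 6 pMSCV and SRF libraries and above 1 CPM. Of all tested genes, 11 were raised (0.0593%). Most of the named genes were chosen because the fusions differ, so the share among them is a description. Over the 6 SRF-FOXO1 and SRF-RELA libraries the lowest CPM was 139.8 for ACTG2, where the controls reached 27.4, and 39.5 for IGFBP5, where they reached 11.2. It was 34.8 for CMKLR1 (controls up to 0.88) and 33.9 for COL11A1 (controls up to 4.34). NRXN3 had at least 7.78 CPM (controls up to 0.347), CDH3 at least 4.86 CPM (controls up to 0.0383) and KRT17 at least 3.79 CPM (controls up to 0.903). No test was made of these levels.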

How the results depend on the processing

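All 152 genes called without the block kept call and direction with the replicate block, which gave 883 calls, 559 higher and 324 lower in SRF-ICA1L. The block together with only the 6 compared libraries gave 1704 (961 higher, 743 lower), with the DESeq2 Wald test 1306 (767 and 539) and with total scaling 1031 (408 and 623). Without the block, DESeq2's Wald test called 462 (290 and 172), a minimum of 10 counts in every library 59 (43 and 16) and the 6 compared libraries alone 100 (71 and 29). Total scaling gave 78 lower genes. Leaving out 1 library without the block gave 43 to 160 calls, 31 to 118 higher and 8 to 42 lower, and with the block 314 to 689, 196 to 427 and 96 to 262. DESeq2 size factors in edgeR (155 calls), no count filter (158) and a log2 fold change of at least 1 (123) stayed within 1.5 times. A similar total did not always mean the same genes. Of the 152, DESeq2 size factors kept 152 with the same direction, total scaling 135, no count filter 116 and the 6 compared libraries alone 69. The cause was not tested, except that the smaller fits hold fewer libraries or genes. Of the 90 named genes, DESeq2 size factors moved no call, total scaling 4, no filter 13, the 6 libraries alone 21, DESeq2's Wald test 22 and the block 45. The sign turned for 3 genes that were called in neither fit. Over the fits without 1 library SRF ranged up to 0.50, MYH11 up to 0.40 and FOS up to 1.25. SRF went to -0.0061 without SRF-PDGFRB replicate 2, and to -0.071 in that fit with the block. MYH11 went to -0.21 without SRF-ICA1L replicate 2 and -0.00088 without SRF-PDGFRB replicate 1, and with the block to -0.073 without SRF-ICA1L replicate 1 and -0.38 without SRF-PDGFRB replicate 2. FOS went to -0.21 without SRF-ICA1L replicate 1. Depth limits genes such as CDH3, CDH1, NRXN3, CXCL9, CCL8, HLA-DRA, MYOZ1, XIRP1, DUSP2, MGP and OGN, where 1 group has 0 to 10 counts per library.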
